A study of Mus musculus with 12 samples.

Results

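The 10 genes described here are commonly read as markers of epithelial-mesenchymal transition: the transcription factor genes Zeb1, Zeb2, Snai1, Snai2, Twist1 and Twist2, the cadherin genes Cdh1 and Cdh2, the intermediate filament gene Vim and the epithelial adhesion gene Epcam. They were chosen by name, and a gene was given a value where a probe set of the array listed its symbol alone. That held for 9 of the 10 genes, out of 30142 genes measured. The one probe set that lists Zeb2 also lists Mir5129, so Zeb2 has no value here.

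The genes were measured in pancreas tumours of 12 PKT mice, 3 in each of 4 groups, with 1 tumour and 1 expression array a mouse. PKT names a mouse model of pancreatic ductal adenocarcinoma, and all 4 groups carry it. The first pair of groups is FAP depleted and FAP-TK control (no depletion), and the second pair is aSMA depleted and aSMA-TK control (no depletion). Fap encodes fibroblast activation protein (FAP) and Acta2 encodes alpha smooth muscle actin (aSMA). TK stands for thymidine kinase, through which ganciclovir becomes toxic to a cell. The labels give ganciclovir at 50 ug per kg for all 12 mice, the controls labelled no depletion among them. They do not say what left the controls without depletion. The labels do not give the age or strain of the mice. The labelled tissue is pancreas tumour, and 8 of 8 ductal and tumour epithelium markers were above the 95th percentile of the negative-control probe sets on most arrays.

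All values are log2 units of normalized array signal, and a difference is a difference of group means in those units. Fap was lower in all 3 FAP depleted tumours than in any FAP-TK control, as were 2.50% of all genes. Its difference was -1.11 ± 0.37 (SE, n = 3 a group, adjusted p = 1.00), but it was above the 95th percentile of the negative-control probe sets on 0 of 12 arrays. Acta2 was not lower in the tumours labelled aSMA depleted, with a difference of 1.68 ± 1.71 (SE, n = 3 a group, adjusted p = 0.949), so those tumours are called by their label throughout. In the FAP line 3 arrays stood apart: in FAP depleted replicate 2 and FAP-TK control replicates 1 and 3 the positive-control and negative-control probe sets were separated by 2.69 to 2.99, against 4.32 to 4.89 on the other 9 arrays. Among the tumours labelled aSMA depleted, replicate 1 stood apart in its acinar genes, which averaged 6.32 there, against 11.64 and 13.84 in replicates 2 and 3. In the deposited values negative-control medians were 5.46 to 6.49 in the FAP line, against 4.46 to 4.88 in the aSMA line, so array background and line cannot be told apart.

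In epithelial-mesenchymal transition, epithelial cells lose their cell-cell junctions and take on a motile, mesenchymal state. The ZEB, SNAIL and TWIST factors bind E-box sequences and repress epithelial genes such as Cdh1, which encodes E-cadherin, while Cdh2 (N-cadherin) and Vim (vimentin) mark the mesenchymal state. In a whole tumour Vim and the transition factors also come from fibroblasts, endothelium and leukocytes, whereas Cdh1 and Epcam come from the epithelium. Fewer cells of a type and less RNA per cell cannot be told apart in these samples.

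The microRNAs of the miR-200 family, known to target Zeb1 and Zeb2, are the best known brake on these factors and are shown because 4 of their genes had probe sets of their own. The mature sequences are from RefSeq (GRCm38.p6), 5′ to 3′, with the seed, bases 2 to 8, in capitals.
mmu-miR-141-3p: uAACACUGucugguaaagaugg
mmu-miR-200a-3p: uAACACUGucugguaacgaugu
mmu-miR-200b-3p: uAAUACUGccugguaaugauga
mmu-miR-200c-3p: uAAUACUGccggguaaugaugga
The pair miR-141 and miR-200a share one seed, and the pair miR-200b and miR-200c share the other. On GRCm38.p6 they lie on the minus strand, miR-141 at chr6:124717917-124717938 and miR-200c at chr6:124718324-124718346, and miR-200a at chr4:156054911-156054932 and miR-200b at chr4:156055685-156055706.

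The E-box bound by SNAIL and ZEB proteins, CAGGTG or its reverse complement CACCTG, was searched on both strands in the 250 bases before the annotated starts of the members. Of the 10 members 6 had a promoter in the RefSeq table, and 2 of them, Epcam and Snai1, held the motif. Cdh1, Cdh2, Zeb1 and Snai2 had no promoter there and were not searched, so nothing is said of the motif before Cdh1. By annotated starts that is 2 of the members' 9, against 17.2% of 32851 starts of all genes. The windows are shown with the motif in capitals, since Epcam is an epithelial gene of the list and Snai1 encodes a factor that reads this motif.
Epcam, GRCm38.p6 chr17:87635729-87635978, plus strand: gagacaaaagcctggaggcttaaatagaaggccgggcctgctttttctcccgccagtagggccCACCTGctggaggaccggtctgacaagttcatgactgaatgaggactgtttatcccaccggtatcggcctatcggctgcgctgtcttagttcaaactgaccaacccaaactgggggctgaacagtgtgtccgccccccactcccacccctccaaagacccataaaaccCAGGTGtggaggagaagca
Snai1, GRCm38.p6 chr2:167537945-167538194, plus strand: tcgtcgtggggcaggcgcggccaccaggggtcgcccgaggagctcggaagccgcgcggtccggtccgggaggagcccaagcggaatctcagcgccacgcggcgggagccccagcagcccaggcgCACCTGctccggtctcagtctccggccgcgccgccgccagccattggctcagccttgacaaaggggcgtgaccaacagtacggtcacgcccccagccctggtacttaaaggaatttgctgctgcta
The Epcam motifs begin at -187 and -19 and the Snai1 motif at -126, counted from the annotated start. These matches are letters in a window and say nothing of binding in the tumours.

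The members ran on very different footings. Cdh1 and Epcam exceeded the 95th percentile of the negative-control probe sets on 12 of 12 arrays and Vim on 11. Zeb1, Snai1, Snai2, Twist1, Twist2 and Cdh2 did so on 0 arrays. Zeb1 was above the negative-control median on 11 arrays and Snai1, Snai2 and Cdh2 on 9 each, while Twist1 and Twist2 were below it on every array. Differences of the 6 dim genes are therefore differences between dim readings and are not given as folds.

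**Figure D1:**
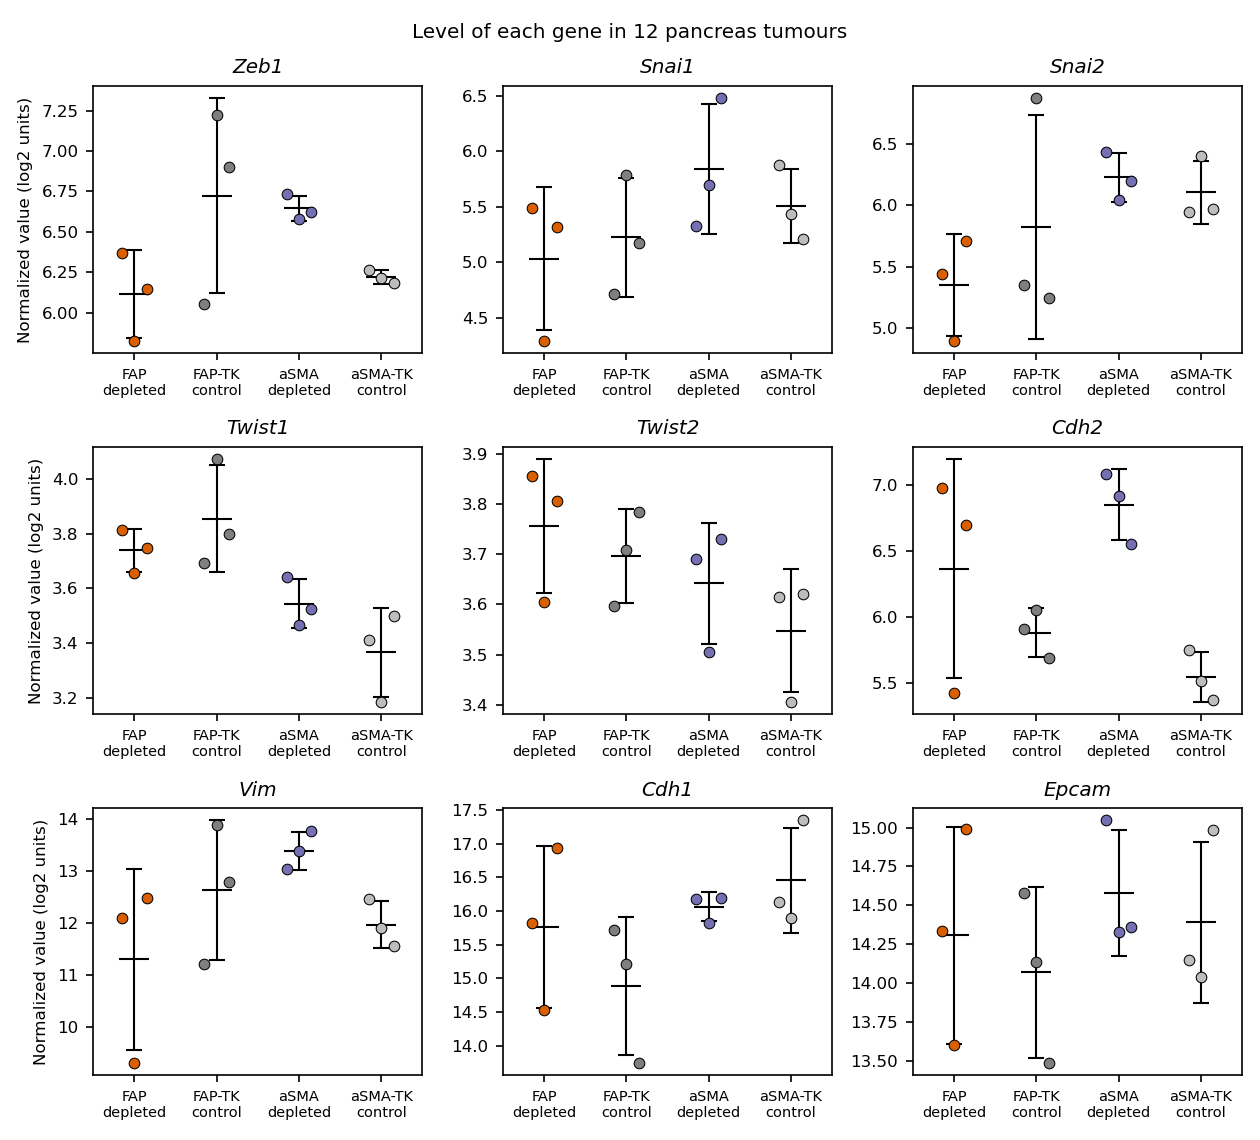
Normalized log2 value (vertical axis) of the 9 measured genes in each of the 12 tumours, grouped along the horizontal axis. Points are tumours, and bars are the group mean with 1 SD (n = 3). Zeb1, Cdh2 and Vim of the aSMA depleted group lie above all 3 aSMA-TK control tumours. Cdh1 and Epcam overlap between depleted and control tumours in both lines.

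In the FAP line the question was how expression differs between the tumours labelled FAP depleted and their controls. Of the 9 genes 5 were lower and 4 higher in the FAP depleted tumours, where 59.9% of all genes were higher, none passed the test, and none separated the groups. limma called 0 of 30142 genes (0%) in this comparison, 3.71% had an unadjusted p under 0.05 and 8.10% had groups that did not overlap, 5.60% higher and 2.50% lower. The median difference of the 9 genes was -0.12, against 0.04 over all genes.

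Zeb1, the E-box repressor best known for silencing Cdh1, had 6.37, 5.83 and 6.15 in the FAP depleted tumours, against 6.05, 7.22 and 6.90 in the FAP-TK controls. Control replicates 2 and 3 were above every depleted tumour, and control replicate 1 lay among the depleted tumours. The difference was -0.61 ± 0.26 (SE, n = 3 a group), with a 95% interval of -1.18 to -0.04 that is not adjusted for the number of genes, an adjusted p of 1.00 and an exact permutation p of 0.3, where 3 against 3 cannot give less than 0.1. It was -0.36 without FAP-TK control replicate 2 and -0.95 without FAP-TK control replicate 1. Zeb1 was the one member with an unadjusted p under 0.05 here.

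The SNAIL factors repress Cdh1 through the same E-box. Snai1 had 5.49, 4.29 and 5.32 in the FAP depleted tumours, against 4.72, 5.78 and 5.18 in the FAP-TK controls. The groups overlapped fully, at -0.19 ± 0.40 (SE, adjusted p = 1.00). Snai2, the gene of SLUG, had 5.44, 4.90 and 5.71 in the depleted tumours, against 5.35, 6.87 and 5.24 in the controls. One control tumour, replicate 2, set its difference of -0.47 ± 0.40 (SE, adjusted p = 1.00), which was 0.05 without that tumour. Twist1 and Twist2, which encode basic helix-loop-helix factors, differed by -0.12 ± 0.12 and 0.06 ± 0.11 (SE), with both genes at the array's dim end in every tumour.

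Vim, which encodes the filament of mesenchymal cells, had 12.10, 9.31 and 12.49 in the FAP depleted tumours, against 11.21, 13.90 and 12.80 in the FAP-TK controls. Depleted replicate 2 was far below the rest, and it is one of the arrays of low separation. The difference of -1.33 ± 0.85 (SE, adjusted p = 1.00) was -0.34 without that tumour, -0.70 without FAP-TK control replicate 2 and -2.05 without FAP-TK control replicate 1. Fibroblast markers averaged 9.47, 7.33 and 9.65 in the depleted tumours, against 8.74, 10.14 and 9.92 in the controls, so the tumour of lowest Vim also had the lowest fibroblast mean. Of the 9 measured fibroblast markers, which include the depletion target Fap, 9 were lower, where 59.9% of all genes were higher, and 0 were called. The log2 of their summed signal ran from 12.29 to 15.55 in depleted tumours and from 14.57 to 15 in controls. Their part in the Vim values was not tested.

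Cdh1 had 15.83, 14.54 and 16.93 in the FAP depleted tumours, against 15.72, 15.21 and 13.75 in the FAP-TK controls. The highest tumour was a depleted one and the lowest a control, but depleted replicate 2 was below control replicates 1 and 2. The difference was 0.87 ± 0.66 (SE, adjusted p = 1.00), or 0.30 when the third control was left out. Among the depleted tumours, leaving out replicate 3 gave 0.29 and leaving out replicate 2 gave 1.49. Epcam had 14.33, 13.60 and 14.99 in the depleted tumours, against 14.58, 14.14 and 13.49 in the controls. It stood at 0.24 ± 0.41 (SE, adjusted p = 1.00), with the tumours in nearly the order they had for Cdh1. Cdh2 had 6.98, 5.42 and 6.70 in the depleted tumours, against 5.91, 6.05 and 5.69 in the controls. Depleted replicates 1 and 3 were above all controls and depleted replicate 2 below them, which gave 0.48 ± 0.34 (SE, adjusted p = 1.00), or 0.96 without that tumour.

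In the aSMA line the same was asked of the tumours labelled aSMA depleted and their controls. Cells positive for aSMA include myofibroblasts, pericytes and smooth muscle. Of the 9 genes 8 were higher and 1 lower in the tumours labelled aSMA depleted, where 53.2% of all genes were higher. Cdh2, Vim and Zeb1 were above every control in all 3 of those tumours, that is 3 of 9 genes, where 7.43% of all genes were higher without overlap, 5.08% were lower without overlap and 12.5% did not overlap in either direction. None passed the test, and limma called 0 of 30142 genes (0%), with 4.81% at an unadjusted p under 0.05. The median difference of the 9 genes was 0.19, against 0.01 over all genes.

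Cdh2, which encodes the cadherin of mesenchymal, neural and endocrine cells, had 7.08, 6.92 and 6.56 in the tumours labelled aSMA depleted, against 5.75, 5.52 and 5.38 in the aSMA-TK controls. The lowest of the 3 tumours so labelled was above the highest control by more than the range of the controls. The difference was 1.31 ± 0.34 (SE, n = 3 a group), with a 95% interval of 0.54 to 2.07, an adjusted p of 0.944 and an exact permutation p of 0.1, the smallest this design allows. It ran from 1.19 to 1.45 with each array left out in turn, and was 1.19 without aSMA depleted replicate 1. Islet hormone and secretory genes, from cells that also carry Cdh2, averaged 7.81, 6.10 and 6.96 in the same tumours, against 6.13, 5.91 and 7.16 in the controls, with 0 of 5 above the negative-control 95th percentile on most arrays. Their part in the Cdh2 values was not tested.

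Vim had 13.04, 13.39 and 13.77 in the tumours labelled aSMA depleted, against 12.47, 11.90 and 11.56 in the aSMA-TK controls. The groups did not overlap, at 1.42 ± 0.85 (SE, n = 3 a group, adjusted p = 0.944, exact permutation p = 0.1), and the difference was 1.6 without aSMA depleted replicate 1. Fibroblast markers averaged 9.58, 10.09 and 10.88 in those tumours, against 9.58, 9.54 and 8.77 in the controls, with 9 of 9 higher and 0 called. The log2 of their summed signal ran from 14.10 to 16.18, against 13.35 to 14.72 in the controls. Macrophage markers were also higher for 7 of 7 genes, where 53.2% of all genes were, 4 of them without overlap, where 7.43% of all genes were, and 0 called, with a median difference of 0.87 and summed log2 signal of 13.26 to 14.44, against 11.03 to 12.41 in the controls. The part of these cells in the Vim values was not tested.

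Zeb1 had 6.73, 6.58 and 6.62 in the tumours labelled aSMA depleted, against 6.27, 6.22 and 6.18 in the aSMA-TK controls. Both groups were tight, with SDs of 0.08 and 0.04, and they did not overlap. The difference was 0.42 ± 0.26 (SE, adjusted p = 0.944, exact permutation p = 0.1), where the SE comes from the spread of all 4 groups and so is larger than that within this line. It ran from 0.38 to 0.46 with each array left out.

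The groups overlapped for the remaining transition factors. Snai1 had 5.33, 5.70 and 6.48 in the tumours labelled aSMA depleted, against 5.87, 5.44 and 5.21 in the aSMA-TK controls, and replicate 3 alone was above all controls. Its difference of 0.33 ± 0.40 (SE, adjusted p = 0.954) was 0.0076 without that tumour. Snai2 stood at 0.12 ± 0.40, Twist1 at 0.18 ± 0.12 and Twist2 at 0.09 ± 0.11 (SE), all with overlapping groups. With each array left out Snai2 ran from 0.02 (without aSMA depleted replicate 1) to 0.27 (without aSMA-TK control replicate 2), Twist1 from 0.09 (without aSMA-TK control replicate 2) to 0.25 (without aSMA-TK control replicate 3) and Twist2 from 0.02 (without aSMA-TK control replicate 2) to 0.16 (without aSMA depleted replicate 2).

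The epithelial genes overlapped too. Cdh1 had 16.18, 15.82 and 16.20 in the tumours labelled aSMA depleted, against 16.13, 15.89 and 17.35 in the aSMA-TK controls. Control replicate 3 was the highest tumour of the series, and without it the difference of -0.39 ± 0.66 (SE, adjusted p = 0.963) was 0.05. Epcam had 15.05, 14.33 and 14.36, against 14.14, 14.04 and 14.99 in the controls, a difference of 0.19 ± 0.41 (SE, adjusted p = 0.978) with a 95% interval of -0.74 to 1.12. Its sign depended on the scaling, at -0.03 with median centring and -0.11 with the values as deposited.

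**Figure D2:**
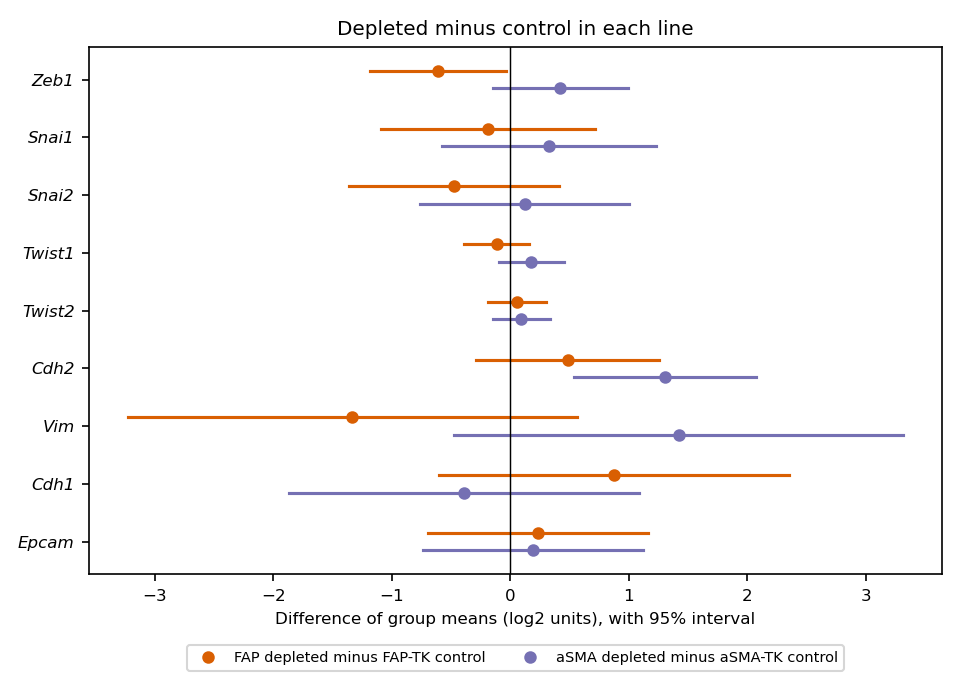
Difference of group means in log2 units (horizontal axis) with its unadjusted 95% interval from the fit over all 12 arrays, for each of the 9 genes (vertical axis) in the FAP line and the aSMA line. The Cdh2 interval of the aSMA line, 0.54 to 2.07, and the Zeb1 interval of the FAP line, -1.18 to -0.04, leave out 0, and the other 16 include it.

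The effects of the 2 lines were then set against each other in 1 test, aSMA line minus FAP line. limma called 0 of 30142 genes (0%), and 5.96% had an unadjusted p under 0.05. Of the 9 genes 7 were above 0, where 46.4% of all genes were. Zeb1 differed between the effects by 1.03 ± 0.36 (SE, 95% interval 0.23 to 1.84, adjusted p = 0.829) and Vim by 2.76 ± 1.20 (SE, 95% interval 0.08 to 5.43, adjusted p = 0.829). For both genes the fitted effect was below 0 in the FAP line and above 0 in the aSMA line, and both kept a positive difference with each array left out, from 0.79 to 1.37 for Zeb1 and from 1.76 to 3.47 for Vim. Cdh1 stood at -1.27 ± 0.93, Cdh2 at 0.82 ± 0.49, Snai1 at 0.52 ± 0.57, Snai2 at 0.59 ± 0.56, Twist1 at 0.29 ± 0.17, Twist2 at 0.03 ± 0.15 and Epcam at -0.05 ± 0.59 (SE), none of them called. Single arrays moved several of these values. Without FAP depleted replicate 2 Cdh2 was at 0.35, Snai1 at 0.15 and Twist2 at -0.04. Without FAP-TK control replicate 2 Snai2 was at 0.07 and Twist1 at 0.19. Without FAP depleted replicate 3 Cdh1 was at -0.68 and Epcam at 0.29.

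The controls of the lines differed more than depleted and control tumours did, with 2350 genes (7.80%) called between aSMA-TK control and FAP-TK control tumours, 1440 of them higher, and 28.2% had an unadjusted p under 0.05. Among the members 1 of 9 was called, 4 were above 0, where 58.2% of all genes were, and 2 did not overlap, where 35.0% of all genes did not, 21.3% higher and 13.8% lower. Twist1 had 3.41, 3.19 and 3.5 in the aSMA-TK controls, against 3.69, 4.07 and 3.80 in the FAP-TK controls, a difference of -0.49 ± 0.12 (SE, adjusted p = 0.0428). All of these values were below the negative-control median of their own array, where array background and line cannot be told apart. The call ended with 10 of the 12 arrays left out in turn (adjusted p from 0.0452 to 0.131 over all 12). With dim genes left out 0 of 4518 genes were called, but that filter removes Twist1 and so cannot test its call.

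Cdh1 was higher in the aSMA-TK controls without overlap, by 1.57 ± 0.66 (SE, adjusted p = 0.156), and the difference was 0.997 without FAP-TK control replicate 3. Zeb1 was at -0.50 ± 0.26 (SE, adjusted p = 0.229) and Vim at -0.66 ± 0.85 (SE, adjusted p = 0.642), with overlapping groups. Without FAP-TK control replicate 1 Zeb1 was called, at -0.84 (adjusted p = 0.0376). Vim was at -0.03 when FAP-TK control replicate 2 was left out. Cdh2, Snai1, Snai2, Epcam and Twist2 stood at -0.34, 0.28, 0.28, 0.32 and -0.15. Their adjusted p ran from 0.394 to 0.678, and Snai1, Snai2 and Twist2 changed sign with median centring, to -0.02, -0.14 and 0.01.

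Across the 4 groups, mean Zeb1 was 6.11 ± 0.27 in FAP depleted, 6.72 ± 0.60 in FAP-TK control, 6.65 ± 0.08 in aSMA depleted and 6.22 ± 0.04 in aSMA-TK control tumours (SD, n = 3). Mean Vim was 11.30 ± 1.74 in FAP depleted, 12.63 ± 1.35 in FAP-TK control, 13.40 ± 0.37 in aSMA depleted and 11.98 ± 0.46 in aSMA-TK control tumours (SD, n = 3). FAP depleted tumours were lowest and aSMA-TK control tumours next for both genes, and the highest group was FAP-TK control for Zeb1 and aSMA depleted for Vim. The spread was larger in the FAP line than in the aSMA line for both genes, and the FAP line holds all 3 arrays of low separation. The order of groups across lines is a description, since array background and line cannot be told apart. Zeb1 was above the negative-control 95th percentile on 0 arrays. Its difference between the controls, aSMA-TK minus FAP-TK, was -0.50, against -1.41 with the values as deposited.

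The pairs of members were compared tumour by tumour within each line, over 10 relations. In the FAP line Cdh1 and Epcam followed each other over the 6 tumours (Pearson r = 0.97, exact permutation p = 0.00278, adjusted p = 0.0278; Spearman rho = 0.94, exact permutation p = 0.0167, adjusted p = 0.0833). With the 2 tumours farthest from the median of Cdh1 left out r was 0.94. The lowest Cdh1 values of this line, FAP-TK control replicate 3 and FAP depleted replicate 2, both came from arrays of low separation, and with 3 arrays each the arrays of low and of higher separation are too few for an r of their own. In the aSMA line the relation was weaker and did not pass (r = 0.66, exact permutation p = 0.122, adjusted p = 0.204; rho = 0.66, exact permutation p = 0.175, adjusted p = 0.292), and r was 0.61 without the 2 farthest tumours.

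Vim and Zeb1 also ran together, with r = 0.87 in the FAP line (exact permutation p = 0.0181, adjusted p = 0.0903; rho = 0.94, exact permutation p = 0.0167, adjusted p = 0.0833) and r = 0.88 in the aSMA line (exact permutation p = 0.0528, adjusted p = 0.117; rho = 0.83, exact permutation p = 0.0583, adjusted p = 0.117). Neither passed after adjustment, and r was 0.72 and 0.85 in those lines without the 2 tumours farthest from the median of Vim. In the FAP line the 2 tumours lowest in both genes, FAP depleted replicate 2 and FAP-TK control replicate 1, came from arrays of low separation. FAP-TK control replicate 3, also of low separation, was above every FAP depleted tumour in both genes. Zeb1 was above the negative-control 95th percentile on 0 of 12 arrays, and the part of array quality was not tested. In the aSMA line the relation includes the difference between the groups, which do not overlap in either gene. Cdh1 and Vim showed no such relation, with r = 0.13 in the FAP line, or 0.49 without the 2 farthest tumours (exact permutation p = 0.808, adjusted p = 0.811; rho = -0.09, exact permutation p = 0.919, adjusted p = 0.919). In the aSMA line r was -0.55 (exact permutation p = 0.279, adjusted p = 0.399; rho = -0.20, exact permutation p = 0.714, adjusted p = 0.793) and turned to 0.85 without the 2 farthest tumours, so it rested on those. Snai1 and Snai2 gave r = 0.79 in the FAP line (exact permutation p = 0.0583, adjusted p = 0.117; rho = 0.89, exact permutation p = 0.0333, adjusted p = 0.0833), which was 0.41 without the 2 farthest tumours, and r = -0.15 in the aSMA line (exact permutation p = 0.811, adjusted p = 0.811; rho = -0.20, exact permutation p = 0.714, adjusted p = 0.793), which was -0.98 without the 2 farthest. Twist1 and Twist2 gave r = 0.30 in the FAP line (exact permutation p = 0.636, adjusted p = 0.795; rho = 0.54, exact permutation p = 0.297, adjusted p = 0.425) and r = 0.84 in the aSMA line (exact permutation p = 0.0292, adjusted p = 0.0972; rho = 0.89, exact permutation p = 0.0333, adjusted p = 0.0833). Without the 2 farthest tumours these were 0.88 and 0.49.

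**Figure D3:**
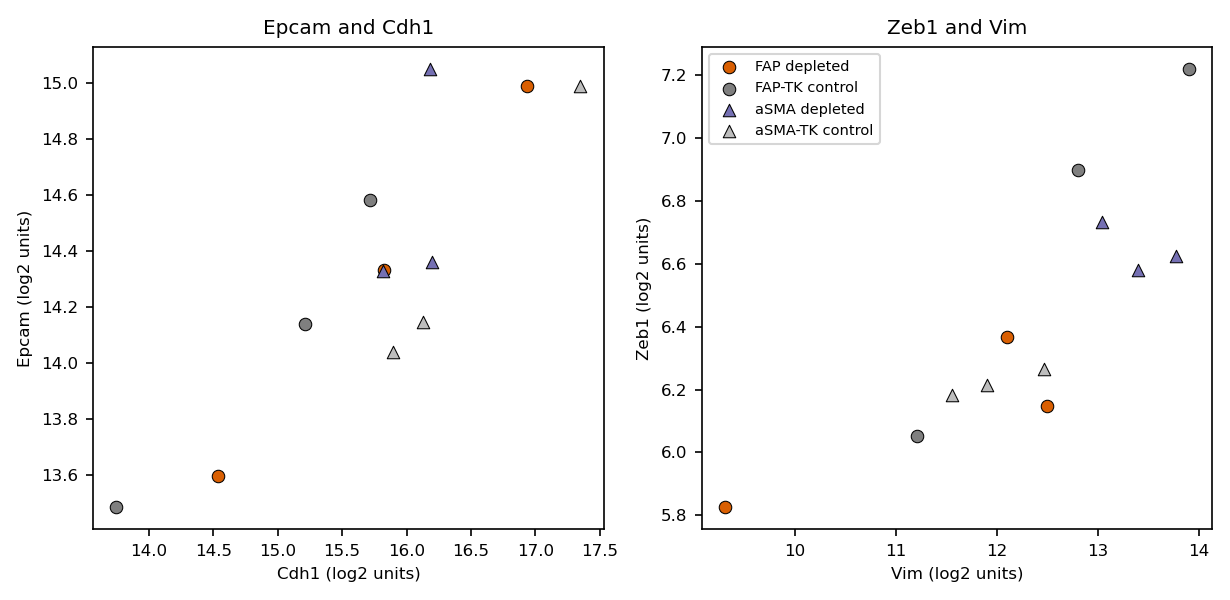
Left, Epcam against Cdh1, and right, Zeb1 against Vim, in log2 units, with 1 point a tumour. Circles are the FAP line and triangles the aSMA line, with depleted tumours in colour and controls in grey. Epcam follows Cdh1 in the FAP line (r = 0.97), and the 3 aSMA depleted tumours lie to the right of and above their controls in the plot of Zeb1 and Vim.

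The genes whose values within groups were most like those of 3 members over the 12 tumours were looked up as a description. Clone names, unnamed genes and the genes of microRNAs and small nucleolar RNAs were left out. For Vim they were Zyx, which encodes the focal adhesion protein zyxin (Pearson r = 0.98, rho = 0.94), Colec12 (r = 0.98, rho = 0.98) and Mxra8 (r = 0.98, rho = 0.92). For Cdh1 they were Poldip3 (r = 0.99, rho = 0.99), Wdr81 (r = 0.98, rho = 0.98) and Nprl3 (r = 0.97, rho = 0.98). For Zeb1 they were Phtf1 (r = 0.99, rho = 0.89), Cysltr1 (r = 0.99, rho = 0.85) and Hax1 (r = 0.98, rho = 0.86). These are the highest values for each member among the genes that remained, and the points share their arrays. Zeb1 varied within groups mostly in the FAP line, which holds the 3 arrays of low separation. Its SDs were 0.27 (FAP depleted) and 0.60 (FAP-TK control), against 0.08 (aSMA depleted) and 0.04 (aSMA-TK control). Cysltr1, Nprl3 and Wdr81 had low means, of 5.54, 5.68 and 5.74. The part of array quality in these relations was not tested.

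The miR-200 genes, whose seeds are shown above, were lower for 4 of 4 in the FAP depleted tumours (3 of 4 without the arrays of low separation) and for 4 of 4 in the tumours labelled aSMA depleted, 0 called in either. Of all genes 59.9% were higher in the first comparison and 53.2% in the second. Mir200b had 7.21, 5.03 and 4.14 in the FAP depleted tumours, against 7.84, 9.49 and 5.39 in the FAP-TK controls, at -2.11 ± 1.07 (SE, adjusted p = 1.00). It had 6.26, 5.48 and 4.56 in the tumours labelled aSMA depleted, against 7.20, 5.85 and 7.58 in the aSMA-TK controls, at -1.44 ± 1.07 (SE, adjusted p = 0.944). Mir141 stood at -0.50 ± 0.39 and -0.58 ± 0.39 in the same comparisons, Mir200a at -0.87 ± 0.67 and -0.68 ± 0.67, and Mir200c at -0.30 ± 0.43 and -0.13 ± 0.43 (SE). Groups overlapped for all 4 genes in both lines, none was above the negative-control 95th percentile on most arrays, and these probe sets lie on the precursor genes and do not measure the mature microRNAs.

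Other inducers of the transition, 12 of 13 measured, had 9 higher and 3 lower in the FAP depleted tumours and 11 higher and 1 lower in the tumours labelled aSMA depleted, where 59.9% and 53.2% of all genes were higher, with 0 called. Without the 3 arrays of low separation the FAP line had 5 higher and 7 lower, with a median of -0.03. The SOX factor gene Sox4 was at 1.52 ± 0.52 and the chromatin factor gene Hmga2 at 0.68 ± 0.30 in the FAP line (SE, adjusted p = 1.00 for both). Hmga2 was at 0.40 ± 0.30 and the homeobox gene Gsc at -0.16 ± 0.16 in the aSMA line (SE, adjusted p = 0.944 and 0.947).

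Regulators that hold cells epithelial, 14 of 14 measured, had 13 higher and 1 lower in the FAP depleted tumours, where 59.9% of all genes were higher. Their median there was 0.17, against 0.04 over all genes. In the tumours labelled aSMA depleted 5 were higher and 9 lower, where 53.2% of all genes were higher. The median there was -0.06, against 0.01 over all genes, and none was called in either line. Grhl2, a grainyhead factor that activates Cdh1 and opposes Zeb1, had 8.76, 9.32 and 9.07 in the FAP depleted tumours, against 8.43, 8.01 and 8.41 in the FAP-TK controls. All depleted tumours were above all controls, by 0.77 ± 0.16 (SE, adjusted p = 1.00), as for 5.60% of all genes. In the aSMA line Grhl2 had 8.2, 8.50 and 8.28, against 8.52, 8.51 and 8.67 in the controls, at -0.24 ± 0.16 (SE, adjusted p = 0.944). All of the tumours labelled aSMA depleted were thus below all controls, as for 5.08% of all genes. The forkhead factor gene Foxa1 was at 0.82 ± 0.42 in the FAP line (SE, adjusted p = 1.00), and the ETS factor gene Elf5 at 0.23 ± 0.12 and Tfcp2l1 at -0.61 ± 0.34 in the aSMA line (SE, adjusted p = 0.944 for both).

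Epithelial junction genes are here the claudins, desmosomal and tight junction proteins that sit beside E-cadherin and the keratins tied to them. The list also holds other epithelial genes, among the measured ones Crb3, Rab25, St14, Spint1 and Spint2, which are counted with the rest. Of its 25 members 23 were measured. In the FAP depleted tumours 22 were higher and 1 lower, with a median of 0.79, against 0.04 over all genes, and 5 separated the groups, all higher, where 5.60% of all genes were higher without overlap. None was called. F11r, which encodes the tight junction protein JAM-A, was at 0.96 ± 0.26 and Cldn7 at 0.86 ± 0.24 (SE, adjusted p = 1.00 for both). The list mean was 11.56, 10.97 and 12.14 in the depleted tumours, against 10.98, 11.03 and 10.15 in the controls, so the tumours overlapped in it. Without the 3 arrays of low separation 18 were higher and 5 lower, which leaves 1 control tumour against 2 depleted ones.

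In the tumours labelled aSMA depleted 6 of the junction genes were higher and 17 lower, with a median of -0.19 and 0 called. Without overlap 1 was higher and 3 were lower, where 7.43% and 5.08% of all genes were. The desmosomal cadherin gene Dsc2 was at -1.49 ± 0.70 and Cldn4 at 1.5 ± 0.87 (SE, adjusted p = 0.944 for both). In the test of the difference between the effects 23 of 23 junction genes were below 0, where 46.4% of all genes were above 0. Their median was -0.85, against -0.03 over all genes, and 0 were called. Without the 3 arrays of low separation 22 of 23 were below 0, with 1 control tumour left in the FAP line.

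Mesenchymal genes other than the members, 16 of 17 measured, had 7 higher and 9 lower in the FAP depleted tumours, with a median of -0.02. The collagen receptor gene Ddr2 had 6.45, 5.44 and 6.49 there, against 6.78, 8.49 and 7.91 in the FAP-TK controls, at -1.60 ± 0.42 (SE, adjusted p = 1.00). All depleted tumours were below all controls for Ddr2, as for 2.50% of all genes. Nes, which encodes the filament protein nestin, was at 0.65 ± 0.31 (SE, adjusted p = 1.00).

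In the tumours labelled aSMA depleted 14 of these mesenchymal genes were higher and 2 lower, with a median of 0.70 against 0.01 over all genes, 6 of them higher without overlap, where 7.43% of all genes were, and 0 called. The membrane-bound metalloproteinase gene Mmp14 was at 1.95 ± 0.84 and Lox, which encodes the collagen crosslinking enzyme lysyl oxidase, at 2.23 ± 1.18 (SE, adjusted p = 0.944 for both). Ddr2 had 6.65, 7.34 and 7.30, against 6.35, 6.54 and 6.42 in the aSMA-TK controls, at 0.66 ± 0.42 (SE, adjusted p = 0.944). All of the tumours labelled aSMA depleted were above all controls for Ddr2, as for 7.43% of all genes. The fibroblast gene Dcn, of the proteoglycan decorin, was at 2.71 ± 1.15 and Pdpn at 1.21 ± 0.68 in the same comparison (SE, adjusted p = 0.944 for both). Each was higher without overlap, as were 7.43% of all genes.

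The other cadherins, 21 of 21 measured, had 19 higher and 2 lower in the FAP depleted tumours, where 59.9% of all genes were higher. Their median there was 0.05, against 0.04 over all genes. Without the 3 arrays of low separation 16 were higher and 5 lower, with a median of 0.02. In the tumours labelled aSMA depleted 13 were higher and 8 lower, where 53.2% of all genes were higher. The median there was 0.05, against 0.01 over all genes, and 0 were called in either line. Only 2 of the 21 were above the negative-control 95th percentile on most arrays. Cdh11, the cadherin of fibroblasts and osteoblasts, was at -1.61 ± 0.56 in the FAP line, with overlapping groups, and Cdh6 at 1.41 ± 0.83 (SE, adjusted p = 1.00 for both). All depleted tumours were higher than all controls for Cdh6, as for 5.60% of all genes. In the aSMA line Cdh3, the gene of P-cadherin, was at 0.61 ± 0.37 and Cdh17 at -0.95 ± 0.67 (SE, adjusted p = 0.944 for both). All of the tumours labelled aSMA depleted were higher than all controls for Cdh3, as for 7.43% of all genes. The catenins, which tie cadherins to actin, had 4 of 5 members measured, with 4 higher in the FAP line and 2 in the aSMA line. Ctnnd1, the gene of p120 catenin, was at 0.90 ± 0.38 and Ctnna2 at 0.16 ± 0.08 in the FAP line (SE, adjusted p = 1.00 for both), and Ctnna1 was at 0.32 ± 0.48 and Ctnna2 at -0.03 ± 0.08 in the aSMA line (SE, adjusted p = 0.957 and 0.981).

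**Figure D4:**
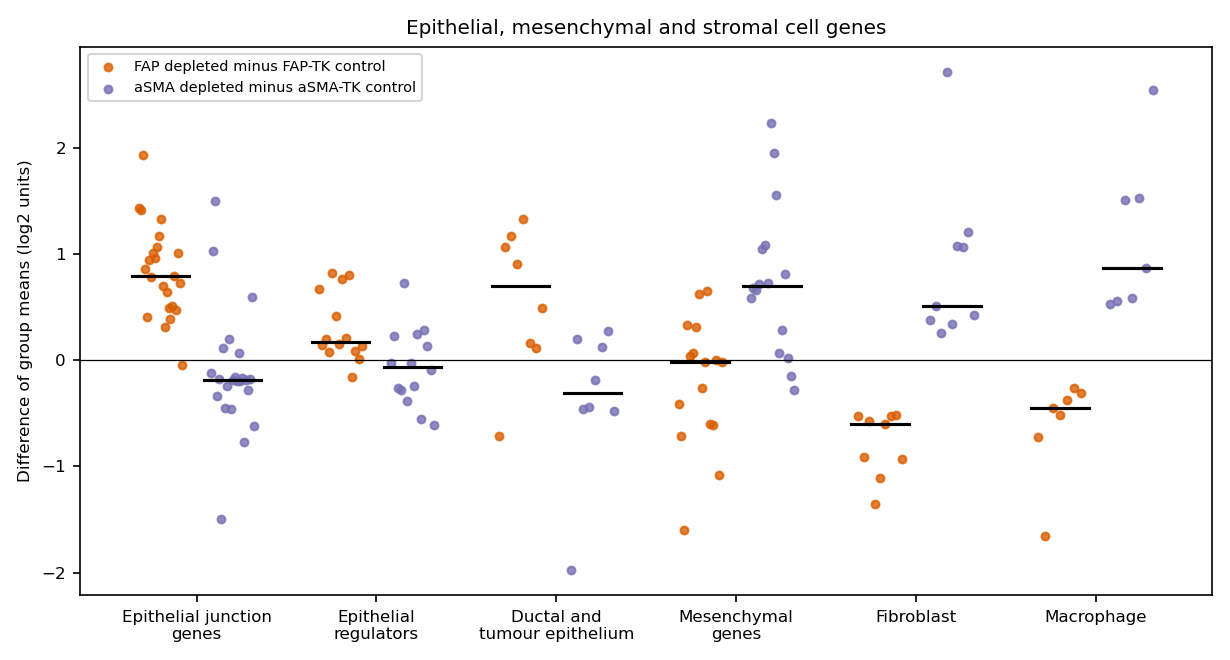
Difference of group means in log2 units (vertical axis) for every measured gene of 6 lists (horizontal axis), in the FAP line and the aSMA line. Points are genes and black lines are list medians. Junction genes lie mostly above 0 in the FAP line (22 of 23), and fibroblast genes lie below 0 in the FAP line (9 of 9) and above 0 in the aSMA line (9 of 9), with no gene called.

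Markers of the cell types around the tumour cells give the setting for these values. Endothelial genes, with Pecam1 at 0.80 ± 0.71 and Cdh5 at 0.50 ± 1.13 (SE) in the aSMA line and Tek at -0.32 ± 0.45 and Kdr at 0.27 ± 0.65 in the FAP line, had medians of 0.16 and 0.12 in those lines. Smooth muscle and pericyte genes were higher for 7 of 7 in the tumours labelled aSMA depleted, with Cnn1 at 1.13 ± 0.65 and Des at 0.72 ± 0.45 (SE), and for 4 of 7 in the FAP depleted tumours, with Tagln at -1.36 ± 1.27 (SE). Macrophage genes were lower for 7 of 7 in the FAP depleted tumours, with Cd163 at -1.65 ± 1.28 and Adgre1 at -0.72 ± 0.73 (SE), and among those higher in the aSMA line were Mertk at 0.87 ± 0.45 and Mrc1 at 2.54 ± 1.43 (SE). Ductal genes were higher for 7 of 8 in the FAP depleted tumours, with Krt7 at 0.90 ± 0.28 and Krt8 at 1.33 ± 0.62 (SE), and for 3 of 8 in the tumours labelled aSMA depleted, with Cftr at -1.98 ± 0.99 and Krt7 at -0.44 ± 0.28 (SE). None of these genes was called in either line. Of all genes 59.9% were higher in the FAP depleted tumours and 53.2% in the tumours labelled aSMA depleted. Without the 3 arrays of low separation the FAP line gave 4 of 8 ductal genes higher with a median of 0.15, against 0.70 with them, and 0 of 6 endothelial genes higher with a median of -0.55. It then gave 3 of 7 macrophage genes, 2 of 7 smooth muscle and pericyte genes and 2 of 9 fibroblast genes higher. Krt8, Krt18 and Krt19 stand in both the junction and the ductal list, Des in both the mesenchymal and the smooth muscle list, Cdh5 in both the cadherin and the endothelial list, and Sox9 in both the inducer and the ductal list. The depletion targets Fap and Acta2 stand in the fibroblast list and the smooth muscle list. Lymphocyte and nerve genes were above the negative-control 95th percentile on most arrays for 0 of 6 and 0 of 3 genes, and the part of any of these cell types in the members' values was not tested.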

How the data were processed

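Pancreas tumour RNA of 12 mice was measured on 1-colour arrays, 1 array a mouse. The authors deposited values on a log2-like scale from 1.64 to 19.93, wider than a 16-bit scanner gives, so differences are not converted to folds. Biotin-labelled cRNA was made with an Ambion kit for Illumina arrays, per the labels' protocols, while the probe set names have the form of another maker's arrays. The submitters' processing notes name limma, and the normalization is not given in the sources used here.

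Of 72688 probe sets 6732 controls were removed and 65956 were quantile normalized. Probe sets that list 1 symbol (30604; 2146 list several and 33206 have no listed gene) gave 30142 genes, 827 symbols being updated from RefSeq, and the probe set of highest mean was taken for 355 genes with several. Groups came from the genotype labels, and replicate numbers are in accession order. limma 3.58.1 (R 4.3.3) fitted 4 group means to all 12 arrays, with Benjamini-Hochberg adjustment over all genes and calls at an adjusted p under 0.05. The groups are mice by the series' design, and their number limits the precision. Single values were tested by exact two-sided permutation. The test was checked on simulated data.

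The members and lists were chosen with earlier results of these data known. Named were all members, Fap and Acta2, each list's called genes and its 2 genes of smallest unadjusted p in each line, and the 3 genes most like Zeb1, Cdh1 and Vim. Alternatives changed the scaling, threshold, dim-gene filter, probe set rule, weights, variance model, offset, separation, samples fitted and each array.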

Additional observations from a re-analysis of the deposited data

Results flagged for a closer look

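Grhl2 and Ddr2 were picked from the named genes by a rule. Their depleted and control tumours did not overlap in either line, and the directions in the FAP and aSMA lines were opposite. That pattern is therefore set by the picking, and the share of all genes that meet the rule was not counted. The difference between the effects, aSMA line minus FAP line, was -1.01 ± 0.23 for Grhl2 (SE, adjusted p = 0.829), from 0.77 in the FAP line and -0.24 in the aSMA line. For Ddr2 it was 2.26 ± 0.60 (SE, adjusted p = 0.829), from -1.60 in the FAP line and 0.66 in the aSMA line. Neither passed after adjustment over all genes. Grhl2 was above the negative-control 95th percentile on 1 of 12 arrays and Ddr2 on 0.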

How the results depend on the processing

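Of the members' differences under settings other than leaving out an array, 296 kept their direction and side of the threshold, 18 reversed, 9 became called and 4 lost a call, and no member was called in either line or between the effects. With each array left out, 404 stayed, 17 reversed, 10 lost a call and 1 became called. No paired analysis was possible because the labels give no replicate numbers shared between groups. The causes of the changes below were not tested.

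Genes called in the FAP line numbered 13 (2 higher) without the arrays of low separation, which leaves 1 control tumour assumed to vary like the other groups, against 0. With each array left out the calls ran from 0 to 4 in the FAP line (4 without FAP depleted replicate 2), from 0 to 16 in the aSMA line (16 without aSMA depleted replicate 3), from 0 to 1 for the difference between the effects and from 508 to 3130 between the control lines. Members called ran from 0 to 0 in both lines and for the difference and from 0 to 1 between the control lines. Members above 0 ran from 3 to 6 in the FAP line, 7 to 9 in the aSMA line, 6 to 8 for the difference and 3 to 4 between the control lines.

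Between the control lines, against 2350 genes called (1440 higher) and 1 member, 5104 genes passed at an adjusted p under 0.1, and 5769 (3342 higher) and 2 members were called with median centring, 12443 (424 higher) and 5 members with the values as deposited, 6658 (4366 higher) and 2 members with array weights, 1536 and 0 members with an offset of 50, 1012 (452 higher) and 2 members with separation as a covariate, and 212 and 0 members with only the groups compared. Without the arrays of low separation 357 (83 higher) were called and 2 members were above 0. With only genes above background, 0 of 4518 genes and 0 members were called, where dim members are left out by construction. The values as deposited put the median of all genes at -0.39 in that comparison, against 0.07. Added calls there were Cdh1 with median centring (1.99), as deposited (1.54) and with array weights (2.20), Zeb1 with median centring (-0.96), as deposited (-1.41) and without the arrays of low separation (-0.999), Cdh2 (-1.17) and Twist2 (-0.43) as deposited, and Vim with the covariate (-2.32). Twist1 lost its call with median centring, the offset, only the groups compared and without the arrays of low separation.

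Reversed signs were Snai1 in the FAP line with array weights (0.17), Epcam in the aSMA line with median centring (-0.027) and as deposited (-0.11), and, between the effects, Twist2 with median centring (-0.0014), as deposited (-0.081), with array weights (-0.030) and without the arrays of low separation (-0.029) and Epcam with the covariate (0.069). Between the control lines they were Snai1 (-0.018, -0.47, -0.27 and -0.43) and Snai2 (-0.14, -0.59, -0.77 and -0.43) with median centring, as deposited, without the arrays of low separation and with the covariate, Twist2 with median centring (0.015) and Epcam with the covariate (-0.095). With each array left out, signs crossed 0 for Snai1 (-0.44 to 0.18), Snai2 (-0.76 to 0.052) and Epcam (-0.10 to 0.59) in the FAP line, Cdh1 (-0.67 to 0.054) and Epcam (-0.046 to 0.49) in the aSMA line, Epcam (-0.40 to 0.29) and Twist2 (-0.041 to 0.10) between the effects, and Snai2 (-0.0072 to 0.81) between the control lines. Dim signal limits Twist1 and Twist2 most, which stayed below the negative-control median on all 12 arrays.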

Other observations

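Genes of the other lists were called between aSMA-TK control and FAP-TK control tumours, where 7.80% of all genes were called and array background and line cannot be told apart. Higher in the aSMA-TK controls were the tight junction gene Cldn7 (1.01 ± 0.24, adjusted p = 0.0363), the keratin gene Krt7 (1.58 ± 0.28, adjusted p = 0.0159), Cdh9 (0.36 ± 0.09, adjusted p = 0.0478), Cdh12 (0.36 ± 0.09, adjusted p = 0.0395), Klf8 (0.52 ± 0.12, adjusted p = 0.0305), the B cell gene Cd79a (0.84 ± 0.21, adjusted p = 0.0410) and the prohormone convertase gene Pcsk1 (0.67 ± 0.09, adjusted p = 0.0064; SE throughout). Cdh9, Cdh12, Klf8 and Pcsk1 were above the negative-control median on 0 of 12 arrays, and Cd79a was above the 95th percentile on 0. The tropomyosin gene Tpm1 was lower there, by -1.50 ± 0.22 (SE, adjusted p = 0.0092). Krt7 and Tpm1 were above the 95th percentile on 11 and 9 of 12 arrays, so the fit of only genes above background kept them. That fit called 0 of 4518 genes in this comparison, so neither call held in it.

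Acinar genes were higher for 7 of 7 in the FAP depleted tumours, among them Cela3b (2.01 ± 0.92) and Prss2 (3.34 ± 2.18), and for 3 of 7 in the tumours labelled aSMA depleted, with Cela2a at 1.37 ± 0.96 and Ctrb1 at -2.41 ± 1.74 (SE). Mesothelial genes were higher for 1 of 4 in the FAP line, with Msln at 1.94 ± 0.48 and Wt1 at -0.58 ± 0.32, and for 2 of 4 in the aSMA line, with Msln at 0.90 ± 0.48 and Lrrn4 at -0.29 ± 0.23 (SE). Msln, the one higher in the FAP line, was above the negative-control 95th percentile on 12 of 12 arrays. Upk3b, Wt1 and Lrrn4 were above it on 0, so the Msln values are not read as a measure of mesothelium. Islet genes were higher for 5 of 5 in the FAP line, with Gcg at 1.18 ± 1.08 and Pcsk1 at 0.13 ± 0.09, and for 4 of 5 in the aSMA line, with Ins2 at 0.98 ± 0.54 and Sst at 0.87 ± 0.74 (SE). Without the arrays of low separation 2 of 5 islet genes were higher in the FAP line. Lymphocyte genes were higher for 2 of 6 in the FAP line, with Cd4 at -0.42 ± 0.50 and Cd8a at -0.06 ± 0.19, and for 6 of 6 in the aSMA line, with Cd3e at 0.99 ± 0.33 and Cd4 at 0.93 ± 0.50 (SE). Nerve genes were higher for 3 of 3 in the FAP line, with Sox10 at 0.12 ± 0.08 and S100b at 0.37 ± 0.31, and for 1 of 3 in the aSMA line, with Sox10 at -0.09 ± 0.08 and Gfap at 0.07 ± 0.09 (SE). The fibroblast gene Thy1 was at -0.93 ± 0.78 in the FAP line (SE). None of these was called within a line, and 59.9% of all genes were higher in the FAP line and 53.2% in the aSMA line.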
